A study of Mus musculus with 50 samples.

Results

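The 6 genes described here encode the neurotrophins Bdnf and Ntf3, the Trk receptors Ntrk2 and Ntrk3, the p75 receptor Ngfr and the sorting receptor Sort1. They were chosen by symbol, and all 6 were found in both count tables among 24552 gene symbols. RNA sequencing had been done on ribosome-bound RNA that was immunoprecipitated (IP) from 1 of the 2 classes of medium spiny neurons (MSNs) of the mouse nucleus accumbens (NAc), the D1-MSNs and D2-MSNs that carry dopamine receptor 1 or 2, and on the RNA of the same kind of tissue lysate (input). The question was how each class differs at rest and after chronic social defeat stress.

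In RiboTag (RT) mice, Cre recombinase switches on an HA-tagged copy of the ribosomal protein Rpl22, so that tagged ribosomes and their RNA can be pulled down from the cells that express Cre. All IP and input groups came from C57BL/6 mice of 8 to 12 weeks with the genotype RT; D1-Cre or RT; D2-Cre, both Cre genes being bacterial artificial chromosome transgenes of 1 line each (FK150 and ER44). Control mice (Con) met no aggressor, whereas defeated mice were placed with an aggressive CD1 male on up to 10 days and then sorted by a social interaction test into resilient (Res) and susceptible (Sus) mice. There were 4 Con, 4 Res and 5 Sus D1 IPs, 5 D2 IPs in each of the 3 groups, and 3 inputs for each group and line. A last group of 4 undefeated D1 IPs came from male C57BL/6 mice of the genotype RT; Sirt1-floxed; D1-Cre (Sirt1-KO), in which Cre also removes part of the gene of the deacetylase Sirt1. No age is given for the Sirt1-KO mice in the labels used here, so age and genotype cannot be told apart against the D1 Con mice. Each library held tissue of 2 mice pooled, so the spread between libraries is a spread between pools. The tagged cells are whichever cells of the punch had expressed that Cre transgene.

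Neurotrophins are secreted growth factors that keep neurons alive and tune their synapses. Each binds a Trk receptor kinase by preference, Bdnf to TrkB (Ntrk2) and Ntf3 to TrkC (Ntrk3), while p75 (Ngfr) binds all of them and, with sortilin (Sort1), their uncleaved precursors. Sortilin also steers Bdnf inside the cell. In the striatum, Bdnf protein is known to arrive largely along axons from the cortex, and TrkB is known on both classes of MSN.

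In the mouse genome (GRCm38, GENCODE annotation), Bdnf lies on chromosome 2 at 109674700-109727007 on the plus strand, with 11 coding transcripts from 9 distinct starts that share the coding part, so its count sums over all of its promoters. The RefSeq promoter table gave 7 windows for Bdnf, 2 for Ntf3, 1 for Ntrk2 and 1 for Ngfr. Each window held the 250 bases before and the 50 after a start. Because Bdnf is the classic gene switched on by neuronal activity through factors of the CREB family, the windows were searched on both strands for the cAMP response element TGACGTCA, its variant TCACGTCA and the E-box CACGTG. TCACGTCA was found in 1 of the 7 Bdnf windows, and in 145 of 32851 windows of all genes (0.441%). The element ends 30 bases before the start, and the 150 bases before that start (RefSeq, GRCm38.p6, chr2:109692286-109692435, plus strand, no annotated exon) are shown with it in capitals:
Bdnf promoter: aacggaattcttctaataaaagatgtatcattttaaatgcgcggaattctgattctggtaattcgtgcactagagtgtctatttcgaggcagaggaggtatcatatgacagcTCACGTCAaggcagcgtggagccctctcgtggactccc
TGACGTCA was in none of the windows of the 4 genes, against 1.79% of all windows. CACGTG was in 1 of the Ntf3 windows and in no window of the other 3 genes, against 7.15% of all windows. A match of letters is a description of these windows and says nothing of which promoter was used.

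The IPs held 21591075 to 31009626 counts on genes, the inputs 18384265 to 28179940 and the Sirt1-KO IPs 22174187 to 31785984. The labels of the IPs were checked against their defining genes. The summed level of the D1 markers Drd1, Pdyn, Tac1 and Chrm4 was 1101 to 1553 CPM (counts scaled to a common library size) in the D1 IPs and 396 to 638 in the D2 IPs. The D2 markers Drd2, Adora2a, Gpr6 and Penk summed to 5646 to 7998 CPM in the D2 IPs and to 2061 to 3470 in the D1 IPs. Neither set was absent from the other class. All CPM here were scaled by the trimmed mean of M values (TMM), and the Sirt1-KO comparison had a scaling of its own. Per the study's methods, samples were placed at random in several sequencing sets. The labels do not say which library was in which set, so the part of a set in these differences was not tested. The study does not describe the Sirt1-KO IPs, so for them sequencing set and genotype cannot be told apart.

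Levels were first ranked per length of exonic sequence, in CPM per kb. That length joined the exons of all annotated transcripts, 7.57 kb for Sort1, 19.3 kb for Ntrk2 and 30.2 kb for Ntrk3. A single transcript can be shorter, so distances between genes depend on this length. In the D1 IPs the mean level was 82.6 CPM per kb for Sort1, 32.2 for Ntrk2, 4.07 for Ntrk3, 1.64 for Bdnf, 0.444 for Ngfr and 0.152 for Ntf3. The D2 IPs gave 76.1 for Sort1, 29.7 for Ntrk2, 4.45 for Ntrk3, 1.45 for Ngfr, 0.263 for Bdnf and 0.186 for Ntf3. Sort1, Ntrk2 and Ntrk3 thus kept their order in both classes and did not overlap each other per kb. In plain CPM Ntrk2 and Sort1 did overlap, at 527 to 724 and 574 to 699.7 in the D1 IPs. The last 3 genes of the ranking were the weakly detected ones, and Bdnf and Ngfr exchanged places. Neighbours among them overlapped, as in the D1 IPs, where the range of Bdnf reached down to 0.557 and that of Ngfr up to 1.47 CPM per kb. In the D2 IPs Ngfr reached up to 6.33 CPM per kb and so overlapped Ntrk3 as well. The inputs had 58.0 and 59.8 CPM per kb of Sort1 in the D1 and D2 lines, 36.4 and 37.5 of Ntrk2, and 1.37 and 1.71 of Ngfr beside 0.786 and 0.969 of Bdnf.

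**Figure D1:**
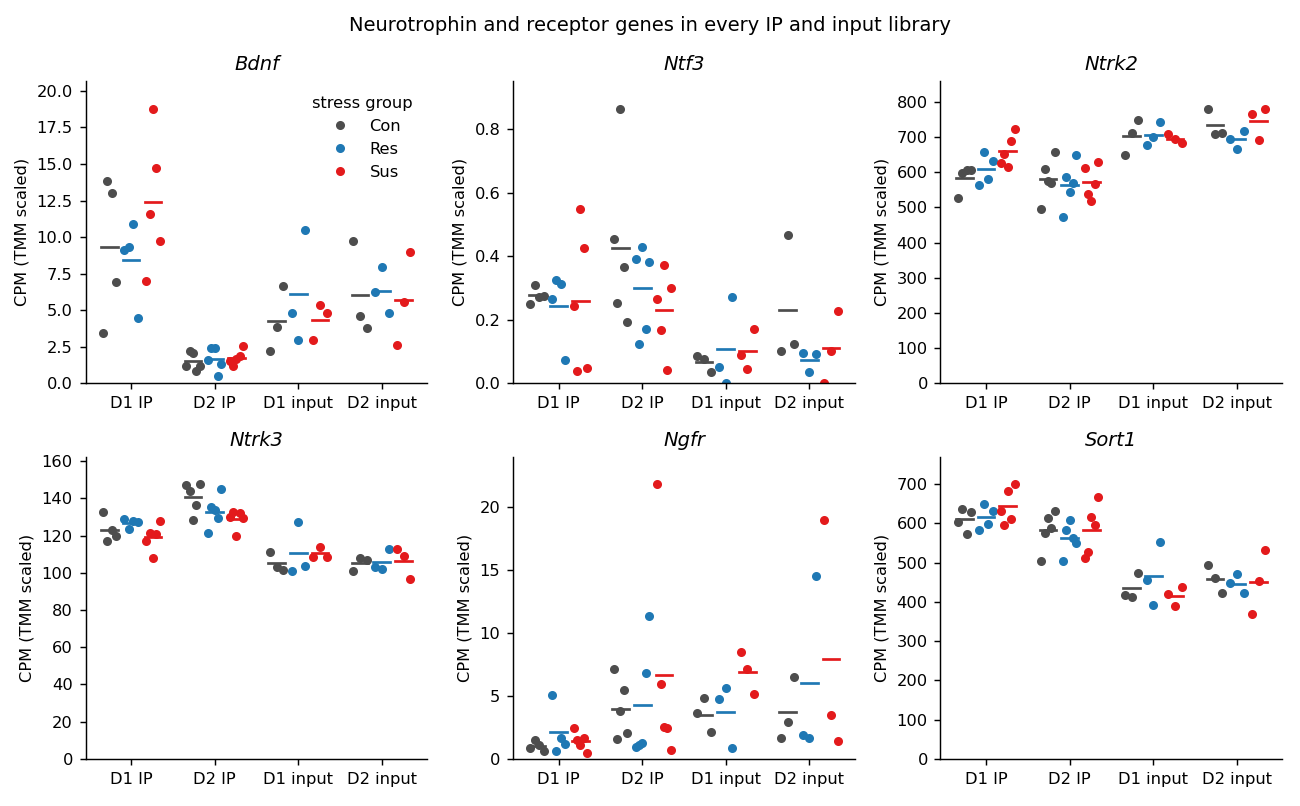
TMM-scaled CPM (vertical axes) of each of the 6 genes in every D1 IP, D2 IP, D1-line input and D2-line input, where each point is a library coloured by stress group and each bar is the mean of a set. Bdnf is at 3.46 to 18.8 CPM in the D1 IPs and at 0.480 to 2.53 CPM in the D2 IPs, without overlap, while the ranges of Ntrk2, Ntrk3 and Sort1 in the 2 kinds of IP lie over each other.

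Bdnf, the ligand of TrkB, was the gene of the 6 with the largest difference between the IPs of the 2 classes. In the D1 IPs its level was 3.46, 13.9, 13.0 and 6.93 CPM in the Con libraries, 9.10, 9.32, 10.9 and 4.47 CPM in the Res libraries, and 6.98, 11.6, 18.8, 14.7 and 9.74 CPM in the Sus libraries. In the D2 IPs it was 1.16, 2.23, 2.08, 0.841 and 1.21 CPM in the Con libraries, 1.57, 2.40, 2.42, 0.480 and 1.32 CPM in the Res libraries, and 1.53, 1.21, 1.64, 1.88 and 2.53 CPM in the Sus libraries. Every D1 IP was above every D2 IP, a lack of overlap that 2.82% of the 14224 genes tested also had. Means were 10.2 ± 4.28 CPM (SD, n = 13) and 1.63 ± 0.616 CPM (SD, n = 15). As the mean of the 3 stress groups, Bdnf was 6.07-fold higher in the D1 IPs (log2 2.60, SE 0.219, edgeR quasi-likelihood test with Benjamini-Hochberg adjustment, adjusted p = 1.31e-10). The log2 difference was 2.63 in Con, 2.37 in Res and 2.80 in Sus mice, each past the threshold as 14%, 17.5% and 17.6% of all genes were, and leaving out any 1 library kept the mean between 2.52 and 2.70. In the D2 IPs these values rest on 14 to 62 counts a library, and in the D1 IPs on 97 to 513.

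Bdnf in the IPs also differed from the inputs, in opposite directions in the 2 lines. The D1-line inputs had 2.18, 3.86 and 6.65 CPM in Con, 4.81, 2.93 and 10.5 in Res, and 2.93, 5.33 and 4.78 in Sus mice. In the D2-line inputs the values were 9.71, 4.61 and 3.78 CPM in Con, 6.25, 7.93 and 4.79 in Res, and 2.65, 5.53 and 8.97 in Sus mice. The D2 IPs therefore lay below all of their inputs, whereas the D1 IPs overlapped theirs. Bdnf was 2.05-fold higher in the D1 IPs than in the inputs (log2 1.04, SE 0.260, edgeR adjusted p = 4.00e-04) and 3.72-fold lower in the D2 IPs (log2 -1.89, SE 0.267, adjusted p = 2.93e-08). The test of the difference between those 2 changes gave 2.93 on the log2 scale (SE 0.375, edgeR adjusted p = 1.36e-07). Between the inputs of the 2 lines Bdnf did not pass (log2 D1 line minus D2 line -0.31, SE 0.275, edgeR adjusted p = 0.976).

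Markers of cortical excitatory neurons moved with Bdnf. All 6 of that list, among them Slc17a7, Neurod6, Tbr1, Neurod2 and Lmo3, were higher in the D1 than in the D2 IPs, with a median log2 difference of 1.76 against -0.02 over all genes. Their summed level was 655 to 1757 CPM in the D1 IPs, 217 to 537 in the D2 IPs, 410 to 1391 in the D1-line inputs and 215 to 1357 in the D2-line inputs, and none of the 6 was at 0 in any of these libraries. From input to IP, 2 of the 6 were higher in the D1 line and none lower, and 5 of 6 were lower in the D2 line and none higher. Across libraries of 1 kind, log2 levels of Bdnf and of the marker sum went together: r = 0.866 in the D1 IPs (n = 13, permutation p = 2.4e-04, adjusted over 9 such relations 5.4e-04; Spearman rho 0.764, adjusted permutation p = 0.00489), 0.688 in the D2 IPs (n = 15, permutation p = 0.00678, adjusted p = 0.0122; rho 0.746, adjusted p = 0.00418) and 0.879 in the inputs (n = 18, permutation p = 2e-05, the smallest the resamples can give, adjusted p = 9e-05; rho 0.897, adjusted p = 2.7e-04). Without the 2 libraries farthest from the median marker sum, r was 0.710, 0.729 and 0.881. Within the inputs of the D1 and D2 lines alone, r was 0.906 and 0.887 (n = 9 each). These relations were chosen after the values had been seen, and the part of such cells in the Bdnf difference was not tested. In bulk libraries like these, fewer cells of a type and less RNA per cell cannot be told apart.

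**Figure D2:**
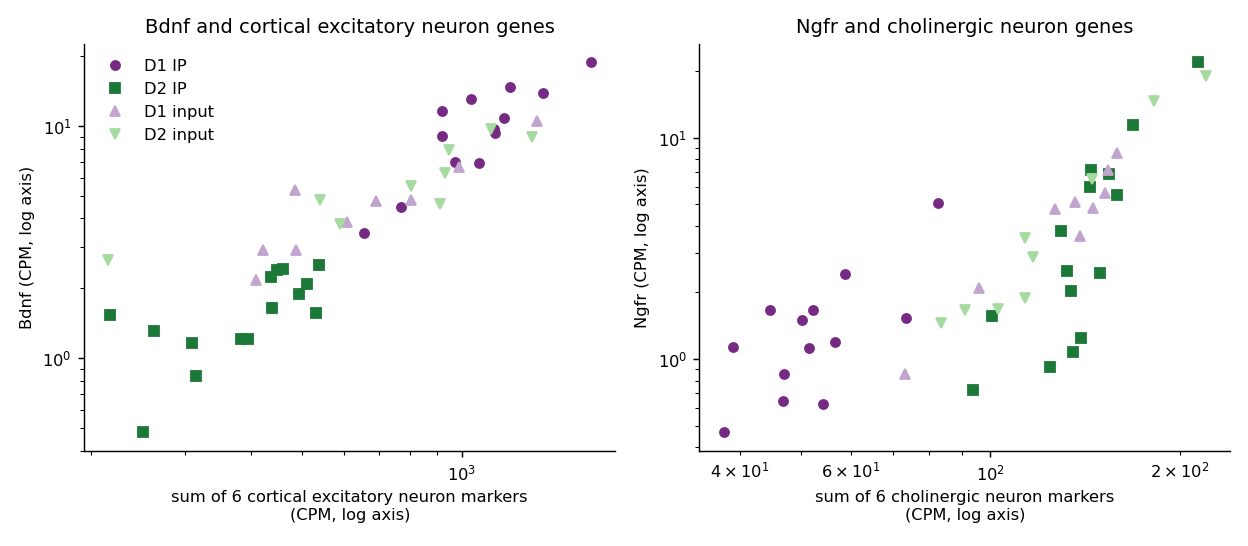
Left, Bdnf against the summed level of 6 cortical excitatory neuron markers; right, Ngfr against that of 6 cholinergic neuron markers; each point is a library, both axes are TMM-scaled CPM on log scales, and symbols give D1 IP, D2 IP and inputs. Each gene rises with its marker sum within the D1 IPs, the D2 IPs and the inputs, with r from 0.688 to 0.879 for Bdnf and from 0.717 to 0.965 for Ngfr.

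Within a group Bdnf was among the most variable genes of its level. Its within-group SD was 0.648 on the log2 scale in the D1 IPs, against a median of 0.161 for the 500 genes of nearest level, and 0.476 against 0.310 in the D2 IPs. The genes whose levels ran most like it over the 28 IPs were Ppm1e, a protein phosphatase (r = 0.972), Frzb, a secreted Wnt antagonist (r = 0.971), and Nrn1, an activity-regulated neuronal protein (r = 0.966). These likenesses are descriptions, since all points share the split between the 2 classes. An annotated exon of Gm45346 overlaps Bdnf on the other strand, and whether the counting used strand is not given in the sources used here, so reads of Bdnf and Gm45346 cannot be told apart.

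Ntf3, the ligand of TrkC, was close to the limit of detection. It had 1 to 15 counts in the D1 IPs, 1 to 22 in the D2 IPs, 0 to 6 in the D1-line inputs and 0 to 9 in the D2-line inputs, with 1 input of each line at 0. These counts correspond to 0.261 ± 0.144 CPM (SD, n = 13) in the D1 IPs, 0.319 ± 0.194 (n = 15) in the D2 IPs, and 0.0918 ± 0.0823 and 0.138 ± 0.138 (n = 9 each) in the inputs. Between the 2 kinds of IP the difference was within its error (log2 -0.26, SE 0.327, edgeR adjusted p = 0.553). Ntf3 was higher in the IPs than in the inputs in the D1 line (log2 1.49, SE 0.482, edgeR adjusted p = 0.00491) and in the D2 line (log2 1.32, SE 0.451, adjusted p = 0.00713). It passed the count filter in the model of the 28 IPs and in that of IPs with inputs, and failed it in those of the inputs alone and of Sirt1-KO. Its most alike genes, Tsfm, Ndufaf5 and Chchd1, reached only r = 0.657, 0.641 and 0.624.

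Ntf5, the second ligand of TrkB, had 0 counts in every IP of the 6 stress groups and at most 1 count in any other library.

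Ntrk2, which encodes TrkB, was an abundant transcript with a narrow spread. In the D1 IPs it was at 527, 598, 607 and 607 CPM in Con, 564, 658, 581 and 633 in Res, and 627, 651, 615, 688 and 724 in Sus mice. The D2 IPs had 495, 610, 575, 569.8 and 657 CPM in Con, 472, 587, 544, 569 and 649 in Res, and 613, 537, 519.6, 567 and 629 in Sus mice. The classes overlapped widely, with means of 621 ± 51.7 CPM (SD, n = 13) and 573 ± 53.8 CPM (SD, n = 15). The difference between the classes missed the threshold (log2 0.09, SE 0.0461, edgeR adjusted p = 0.105). It passed without D1 Con replicate 1, D2 Con replicate 5 or D2 Res replicate 5 (log2 0.11, 0.11 and 0.12) and with library totals alone (log2 0.11, edgeR adjusted p = 0.0384). With the replicate number as a block it passed too (log2 0.12, edgeR adjusted p = 0.00319), as 42.3% of all genes did. In Sus mice, without a call in the main fit, it passed with that block (log2 0.18, edgeR adjusted p = 0.0129), as 22.5% of all genes did. With only the 2 groups compared, Sus passed as well (log2 0.21, edgeR adjusted p = 0.0472). Ntrk2 was lower in the IPs than in the inputs, which had 650 to 748 CPM in the D1 line and 665 to 781 CPM in the D2 line. The change was -0.19 on the log2 scale in the D1 line (SE 0.0472, edgeR adjusted p = 4.96e-04) and -0.34 in the D2 line (SE 0.0456, adjusted p = 1.09e-08), where every IP was below every input. The difference between the 2 changes did not pass (log2 0.15, adjusted p = 0.0857 by edgeR). With the replicate number as a block it did (log2 0.18, edgeR adjusted p = 0.0103), as 26.7% of all genes did.

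TrkB is made by astrocytes as well as neurons, astrocytes carrying mainly a form without the kinase. Astrocyte markers (Gfap, Aqp4, Aldh1l1, Gjb6, Slc1a3 and S100b) were lower in the IPs than in the inputs for 6 of 6 genes in both lines, with median log2 changes of -3.03 and -3.49. Their sums were 46.4 to 88.3 CPM in the D1 IPs and 36.0 to 64.2 in the D2 IPs, against 697 to 892 and 687 to 816 in the inputs, and none of the 6 was at 0. All 6 were also higher in the D1 than in the D2 IPs, by a median of 0.49. Ntrk2 and the astrocyte sum gave r = 0.221 in the D1 IPs (n = 13, permutation p = 0.472), 0.285 in the D2 IPs (n = 15, permutation p = 0.301) and 0.519 in the inputs (n = 18, permutation p = 0.0318, adjusted p = 0.0409), where r was 0.313 and 0.860 within the lines. Spearman rho was 0.269 (permutation p = 0.375), 0.271 (permutation p = 0.324) and 0.684 (permutation p = 0.00232, adjusted p = 0.00418), and r without the 2 farthest libraries 0.158, 0.331 and 0.690. The part of astrocytes in the level of Ntrk2 was not tested. Ntrk2 (chromosome 13, 58806569-59133970, plus strand) has 7 coding transcripts with coding lengths of 1398 to 2463 bases, and the gene counts do not separate the full-length from the truncated receptor.

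Ntrk3, which encodes TrkC, differed by a small amount and in the other direction. It was at 133, 117, 123 and 119.8 CPM in the D1 Con IPs, 129, 124, 128 and 127 in the D1 Res IPs, and 117, 121, 108, 121 and 128 in the D1 Sus IPs. The D2 IPs had 147, 144, 128, 137 and 148 CPM in Con, 121, 135, 134, 129 and 145 in Res, and 130.1, 133, 120.06, 132 and 129.6 in Sus mice. Means of 123 ± 6.51 CPM (SD, n = 13) and 134 ± 8.61 CPM (SD, n = 15) gave a log2 difference, D1 minus D2, of -0.14 (SE 0.0316, edgeR adjusted p = 7.60e-04) between overlapping ranges. By group it passed in Con mice (log2 -0.20, adjusted p = 0.0126 by edgeR; 0.0631 without D1 Con replicate 2) and not in Sus (log2 -0.13, adjusted p = 0.0773, but past the threshold without D1 Sus replicate 5 or D2 Sus replicate 3) or Res mice (log2 -0.08).

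Against the inputs, at 101 to 127 CPM in the D1 line and 96.7 to 113 CPM in the D2 line, Ntrk3 was higher in the D1 IPs by log2 0.18 (SE 0.0383, edgeR adjusted p = 6.71e-05) and in the D2 IPs by 0.34 (SE 0.0375, adjusted p = 6.55e-11), where no IP overlapped an input. The rise in the D1 line was smaller by 0.17 (SE 0.0533, edgeR adjusted p = 0.0181 for a difference of -0.17). It depended on scaling: with library totals alone, which shift the median of all genes from -0.04 to -0.23 in the D1 line, the change of Ntrk3 there was -0.017 (adjusted p = 0.700). Ntrk3 (chromosome 7, 78175959-78738012, minus strand) has 6 coding transcripts of 248 to 2592 coding bases, which the counts likewise sum. Rfx4, Dlx6 and Noc2l ran most like Ntrk3 over the 28 IPs (r = 0.851, 0.845 and 0.822), whereas Plxna4, Nfasc and Ankrd52 ran most like Ntrk2 (r = 0.860, 0.858 and 0.830).

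The ratio of Ntrk2 to Ntrk3 counts compares the 2 Trk receptors within a library and so needs no scaling between libraries. It was 5.06 in the D1 IPs (3.98 to 5.70, n = 13) and 4.26 in the D2 IPs (3.37 to 4.86, n = 15), and 10 of the 13 D1 IPs lay above the highest D2 IP. The log2 difference was 0.25 (two-sided permutation test with 100000 resamples, p = 1e-04, adjusted over 4 ratio comparisons 1.33e-04). That test pooled the libraries of Con, Res and Sus mice, and the highest ratios among the D1 IPs were those of Sus mice. In Con mice alone the difference was 0.20 (exact permutation p = 0.0952, adjusted p = 0.127). Res and Sus mice were not tested alone for this ratio. The ratio was higher still in the inputs, 6.46 in the D1 line (IPs lower by log2, -0.35, exact permutation p = 2.81e-05, adjusted p = 5.62e-05) and 6.84 in the D2 line (-0.68, exact permutation p = 1.53e-06, adjusted p = 6.12e-06), where 15 of 15 IPs lay below the lowest input.

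Ngfr, the p75 receptor, was the second gene of the 6 with a large difference, and the least even one. The D1 IPs had 0.856, 1.51, 1.12 and 0.630 CPM in Con, 5.06, 0.649, 1.67 and 1.19 in Res, and 2.42, 1.53, 1.14, 1.66 and 0.468 in Sus mice. In the D2 IPs it was at 7.15, 1.57, 3.77, 5.48 and 2.03 CPM in Con, 0.925, 1.08, 1.25, 6.83 and 11.4 in Res, and 21.8, 5.96, 2.50, 2.45 and 0.729 in Sus mice. The classes overlapped, and single libraries of each class were several times above their group. Means were 1.53 ± 1.19 CPM (SD, n = 13) and 4.99 ± 5.55 CPM (SD, n = 15). Ngfr was 3.36-fold lower in the D1 IPs as the mean of the 3 stress groups (log2 -1.75, SE 0.449, edgeR adjusted p = 0.00248). The log2 difference was -1.98 in Con (adjusted p = 0.113), -1.02 in Res (adjusted p = 0.39) and -2.24 in Sus mice (adjusted p = 0.0323, all by edgeR). These calls turned round when only the 2 groups compared were fitted. Con then passed (log2 -1.98, edgeR adjusted p = 0.00458) and Sus did not (log2 -2.22, edgeR adjusted p = 0.0585). Without D2 Sus replicate 1, the library at 21.8 CPM, the Sus difference was -1.02 and no longer passed, nor did it without any 1 of D1 Sus replicates 2, 3, 4 and 5, and the mean difference was -1.34, still past the threshold.

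The D1-line inputs had 3.61, 4.81 and 2.10 CPM of Ngfr in Con, 4.76, 5.64 and 0.856 in Res, and 8.52, 7.11 and 5.12 in Sus mice. In the D2-line inputs the values were 1.67, 2.90 and 6.53 CPM in Con, 1.89, 1.68 and 14.6 in Res, and 19.0, 3.50 and 1.45 in Sus mice. Single inputs therefore reached as far as single D2 IPs. Ngfr was lower in the D1 IPs than in their inputs (log2 -1.61, SE 0.528, edgeR adjusted p = 0.00557), while in the D2 line the change was -0.20 (SE 0.471, adjusted p = 0.694). The difference between the lines was not past the threshold (log2 -1.40, adjusted p = 0.150 by edgeR), but was without D2 Res input replicate 3 or D2 Sus input replicate 1, the inputs at 14.6 and 19.0 CPM (adjusted p down to 0.0318).

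Ngfr is a known marker of basal forebrain cholinergic neurons. Of 6 cholinergic markers, Chat, Slc5a7, Slc18a3 and Ecel1 were lower in the D1 than in the D2 IPs, Isl1, a transcription factor that D1-MSNs also use, was higher, and Lhx8 did not pass, with a median log2 difference of -2.45 over the list. Their sum was 37.7 to 82.7 CPM in the D1 IPs, 94.0 to 213.7 in the D2 IPs, 73.1 to 158.9 in the D1-line inputs and 83.6 to 220.6 in the D2-line inputs, with no marker at 0 in any library. From input to IP, 5 of the 6 were lower in the D1 line and 1 higher, and in the D2 line 2 were higher and 2 lower. Log2 levels of Ngfr and of the cholinergic sum gave r = 0.717 in the D1 IPs (n = 13, permutation p = 0.00982, adjusted p = 0.0147), 0.826 in the D2 IPs (n = 15, permutation p = 1e-04, adjusted p = 3e-04; rho 0.796, adjusted p = 0.00222) and 0.965 in the inputs (n = 18, permutation p = 2e-05, adjusted p = 9e-05; rho 0.967, adjusted p = 1.8e-04; r within lines 0.964 and 0.972). Without the 2 farthest libraries r was 0.486, 0.677 and 0.943. In the D1 IPs the rank correlation did not pass (rho 0.555, permutation p = 0.0520, adjusted p = 0.0669). The part of cholinergic neurons in the Ngfr values was not tested. The genes most like Ngfr over the 28 IPs were Ache, which encodes acetylcholinesterase (r = 0.875), Tac2, a tachykinin (r = 0.801), and Th, tyrosine hydroxylase (r = 0.790). Its within-group SD in the D2 IPs was 1.31 on the log2 scale, against a median of 0.257 for the 500 genes of nearest level.

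Sort1, which encodes sortilin, had the highest level per length, with a within-group SD of 0.0830 on the log2 scale in the D1 IPs. It was at 574 to 699.7 CPM in the D1 IPs (median 628), 504 to 667 CPM in the D2 IPs (median 583), 390.1 to 553 in the D1-line inputs and 369.8 to 532 in the D2-line inputs. The D1 IPs were the higher of the 2 by log2 0.10 (SE 0.0402, edgeR adjusted p = 0.0451), a difference between overlapping ranges that lost its call when any of 15 of the 28 IPs was left out (adjusted p up to 0.0784). Sort1 was higher in the IPs than in the inputs by log2 0.51 in the D1 line (SE 0.0566, edgeR adjusted p = 1.04e-10), where no IP overlapped an input, and by 0.35 in the D2 line (SE 0.0548, adjusted p = 2.94e-07). The lines did not differ past the threshold in this change (log2 0.16, adjusted p = 0.133 by edgeR), but did without D1 Res input replicate 3 (log2 0.19, adjusted p = 0.0474). They also did with the replicate number as a block (log2 0.18, edgeR adjusted p = 0.0482). Kcnh1, a potassium channel, was most like it over the IPs (r = 0.907), followed by Ncan (r = 0.871). Gm12523 overlaps an exon of Sort1 (chromosome 3, 108284082-108361511, plus strand) on the other strand.

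In all, 4 of the 6 genes passed an adjusted p of 0.05 between D1 and D2 IPs, Bdnf and Sort1 higher and Ngfr and Ntrk3 lower in D1 IPs, where 40.8% of the genes tested passed, 19.6% higher and 21.3% lower, so that 4 of 6 is little above the background of this comparison. With a fold change over 1.5 required as well, Bdnf and Ngfr remained, against 7.66% of all genes. Between IPs and inputs, where 81.9% of genes in the D1 line and 82.7% in the D2 line passed, 11 of 12 tests of the 6 genes passed, 7 higher and 4 lower, the exception being Ngfr in the D2 line. By direction, 39.2% of all genes were higher and 42.7% lower in the D1 IPs, and 37.8% higher and 44.9% lower in the D2 IPs. With a fold over 1.5 required, 5 of the 12 tests remained, against 43.1% and 43.6% of all genes. For the difference between the 2 lines in that change, Bdnf and Ntrk3 passed, against 25.5% of all genes. Groups did not overlap for 48.3% of all genes between D1 IPs and inputs and for 44.3% in the D2 line.

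**Figure D3:**
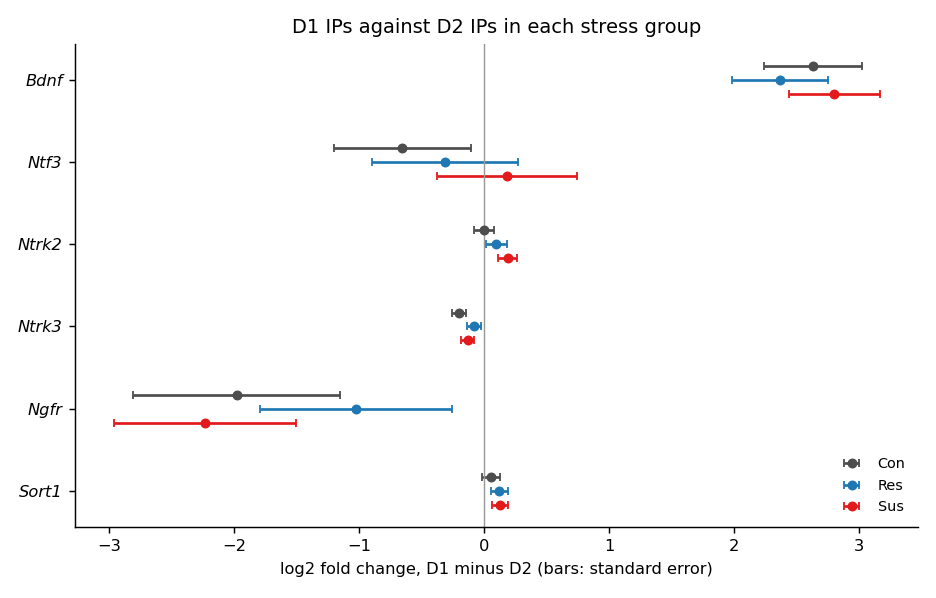
Log2 fold change of D1 over D2 IPs (horizontal axis) with its SE for each of the 6 genes in Con, Res and Sus mice, from the edgeR fit. Bdnf lies between 2.37 and 2.80 in all 3 groups and Ngfr between -2.24 and -1.02, while Ntrk2, Ntrk3 and Sort1 stay near 0.

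**Figure D4:**
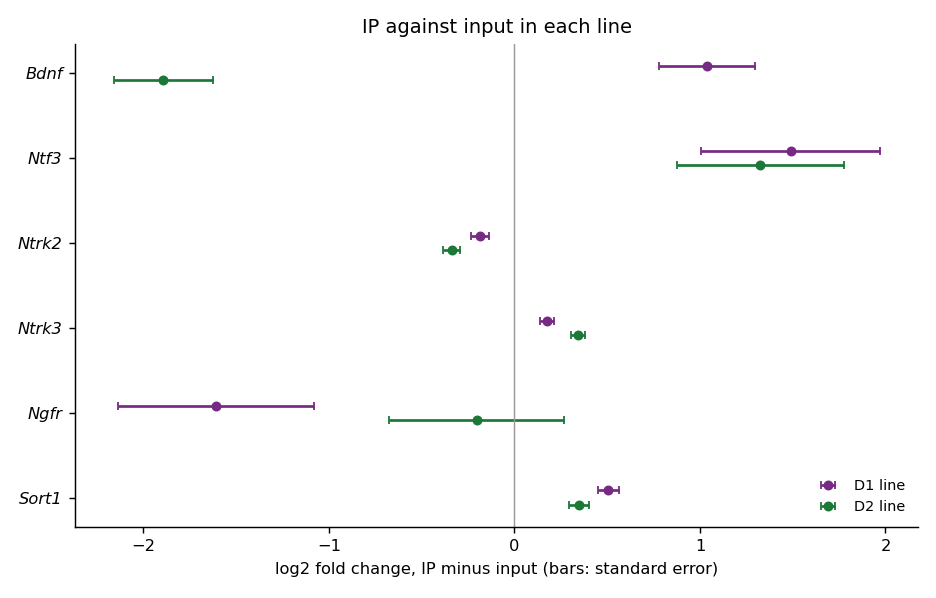
Log2 fold change of IP over input with its SE for each gene in the D1 line and in the D2 line, from the edgeR fit. Bdnf is at 1.04 in the D1 line and -1.89 in the D2 line, Ntf3 and Sort1 are above 0 and Ntrk2 is below 0 in both.

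Chronic social defeat moved none of the 6 genes past an adjusted p of 0.05 by edgeR, nor more than 1 of all genes tested (0.00703%, in D1 Res against D1 Con, and 0% in each other stress contrast). Over the 3 contrasts of Con, Res and Sus within each class, 2 of 36 tests reached an unadjusted p below 0.05 by edgeR, the lowest adjusted p being 0.846, and DESeq2 also gave 2. Ntrk2 was at 615 to 724 CPM in the D1 Sus IPs and 527 to 607 CPM in the D1 Con IPs, without overlap (log2 0.17, SE 0.0815, edgeR adjusted p = 0.846), in a contrast where 5.34% of all genes passed unadjusted and 2.35% did not overlap. That unadjusted call was lost without D1 Con replicate 1, D1 Sus replicate 4 or D1 Sus replicate 5. Ntrk3 gave -0.12 on the log2 scale in D2 Sus against D2 Con IPs (SE 0.0524, edgeR adjusted p = 0.999), where 3.68% of genes passed unadjusted. This one was lost without D2 Con replicate 1 or D2 Sus replicate 3, and with library totals alone (log2 -0.09). In the other contrasts, where 0 of the 6 genes passed unadjusted, the share of all genes was 2.11% for D1 Res against Con, 4.23% for D1 Sus against Res, 3.02% for D2 Res against Con and 1.66% for D2 Sus against Res.

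The larger fold changes between stress groups were those of Bdnf, Ngfr and the barely detected Ntf3, and none passed. Bdnf in the D1 IPs gave log2 0.41 for Sus over Con (SE 0.339, edgeR adjusted p = 0.848) and 0.55 for Sus over Res (SE 0.342, adjusted p = 0.999), with overlapping groups, and in the D2 IPs 0.23 for Sus over Con (SE 0.417). The 6 cortical markers gave a median of 0.31 for D1 Sus over Con, with 0 of 6 past an unadjusted p of 0.05. Ngfr gave 0.75 for D2 Sus over Con (SE 0.669) and 1.04 for D1 Res over Con (SE 0.892), each with an edgeR adjusted p above 0.99. Ntf3 gave -0.89 for D2 Sus over Con (SE 0.530) and -0.53 for D2 Res over Con (SE 0.511), likewise with edgeR adjusted p above 0.99. Among the 18 tests of whether stress acted differently in the 2 classes, 0 reached an unadjusted p of 0.05, where 1.82%, 2.36% and 2.03% of all genes did for Sus against Con, Res against Con and Sus against Res. Ntrk2, the gene with the unadjusted call in the D1 IPs, had a difference between the classes of 0.19 for Sus against Con (SE 0.112). At an unadjusted p of 0.05 the inputs gave 0 of 15 tests for the 5 genes that could be tested there, and Ngfr had the largest change, 1.04 for Sus over Con (SE 0.583, edgeR adjusted p = 0.979), where 4.47% of all genes passed for Sus against Con, 3.23% for Res against Con and 5.54% for Sus against Res. Between the inputs of the 2 lines 0 of 5 genes passed adjusted or unadjusted by edgeR, and 0 by DESeq2, in a comparison where 0.0202% of all genes passed adjusted and 5.2% unadjusted.

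In Sirt1-KO mice the gene count of Sirt1 itself was 432, 502, 415 and 220, against 387, 453, 458 and 384 in the D1 Con IPs (log2 -0.10, edgeR adjusted p = 0.768). Cre removes only the floxed part of the gene, so the count over the whole gene does not check the deletion. By edgeR 0 of 5 of the genes tested passed an adjusted p of 0.05, where 1.66% of all genes passed, and Bdnf, Ntrk2 and Sort1 reached an unadjusted p of 0.05, as 17.3% of all genes did. By DESeq2 Ntrk2 and Sort1 passed adjusted, as 5.44% of all genes did. Bdnf was at 17.2, 21.6, 21.6 and 9.90 CPM in the Sirt1-KO IPs and 3.27, 13.1, 12.4 and 6.60 CPM in the D1 Con IPs, overlapping groups (log2 1.00, SE 0.359, edgeR adjusted p = 0.178; log2 1.18, just past the threshold, without Sirt1-KO replicate 5). Ntrk2 was at 592 to 712 against 499 to 577 CPM, without overlap (log2 0.26, SE 0.0692, edgeR adjusted p = 0.0821). Sort1 was at 621 to 709 against 543 to 602 CPM, also without overlap (log2 0.20, SE 0.0580, edgeR adjusted p = 0.107). Groups did not overlap for 9.55% of all genes here.

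Ntrk3 gave 0.08 on the log2 scale (SE 0.0726) and Ngfr -0.58 (SE 0.309), with edgeR adjusted p = 0.643 and 0.369, and Ntf3, with 4 to 25 counts in the Sirt1-KO IPs, was not tested. The Ntrk2 to Ntrk3 ratio was 5.39 in the Sirt1-KO and 4.74 in the Con IPs (log2 difference 0.18, exact permutation p = 0.257). Marker sums differed between these groups as well. Cortical markers summed to 1109 to 1985 CPM in the Sirt1-KO IPs and 619 to 1348 in the Con IPs (0 of 6 past the threshold, median log2 0.85), D1 markers to 896 to 1121 against 1192 to 1468 (1 of 4 lower), and cholinergic markers to 29.4 to 39.6 against 44.4 to 51.5 (2 of 5 tested lower). GABA interneuron markers summed to 238 to 317 CPM in the Sirt1-KO IPs against 141 to 233 in the Con IPs. The genes of this list weigh unequally. In the D1 IPs other than Sirt1-KO, Cck had 1157 to 3641 counts, Nos1 1272 to 1840 and Sst 1021 to 1798. Npy, Pvalb and Vip had at most 402 there, so the sum does not show a rise of every marker. MSN markers summed to 2618 to 3719 against 3436 to 4455, and D2 markers to 1628 to 2576 against 2254 to 3282. The part of these markers in the values of the 6 genes was not tested.

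**Figure D5:**
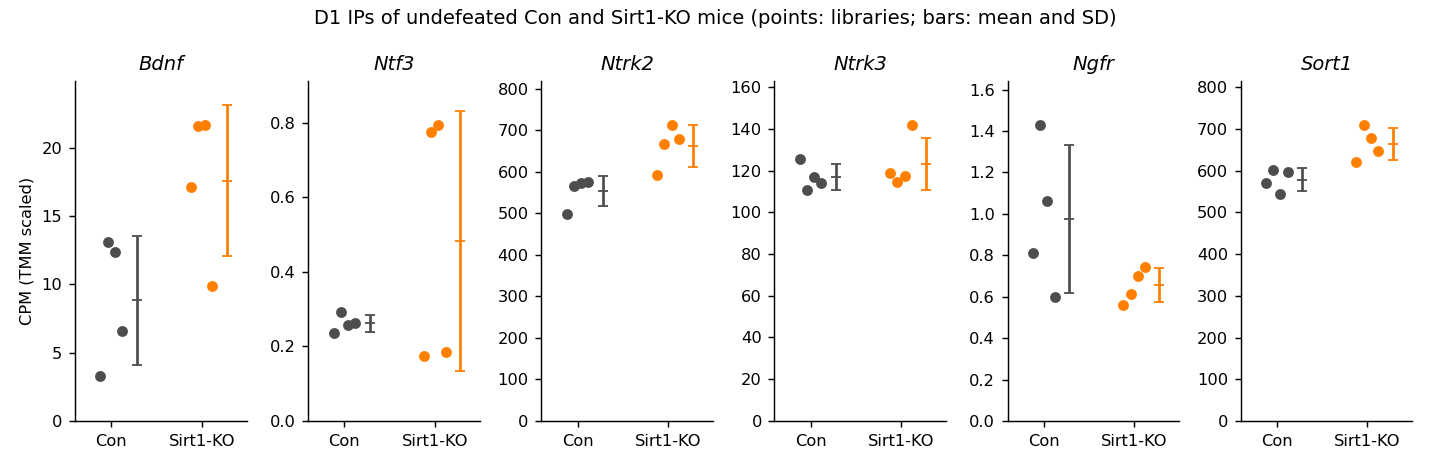
TMM-scaled CPM of the 6 genes in the D1 Con IPs and the Sirt1-KO IPs (4 libraries each), with points for libraries and the mean with SD. Ntrk2 and Sort1 do not overlap between the groups, and Bdnf overlaps, at 9.90 to 21.6 against 3.27 to 13.1 CPM.

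The partners of these genes were then counted over 141 genes of the wider pathway, of which 133 were tested in the IPs, and most of these fall into 8 lists. Between D1 and D2 IPs 55 of them passed (41.4%), 26 higher and 29 lower, against 40.8% of all genes, with a median log2 difference of -0.04 against -0.02. The list of p75 partners and effectors had 11 genes higher and 2 lower of 25. In it Rtn4r, the Nogo receptor that forms a complex with p75, was higher by log2 1.52, Lingo1, the third part of that complex, by 0.77, whereas Irak1 gave -0.16 and Bex3 -0.11. Of 22 Trk co-receptors and negative regulators, 5 were higher, with Spry4 at 0.45 and Slitrk1 at 0.43, and 8 lower, with Slitrk6 at -1.05 and the receptor phosphatase Ptpro at -0.42. Of the 36 adaptors and kinases below Trk, 3 were higher, with Sh2b2 at 0.48 and Frs3 at 0.15, and 7 lower, with the kinases Rps6ka2 at -0.22 and Camk4 at -0.20.

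Among the 4 relatives of sortilin, 2 were lower in D1 IPs, Sorcs2, itself a receptor for neurotrophin precursors with p75 (log2 -0.52, edgeR adjusted p = 6.76e-10), and Sorcs1 (log2 -0.19). The proteases that cleave the precursors and their inhibitors had 3 of 10 higher and 2 lower. Serpini1, an inhibitor of tissue plasminogen activator, was higher by 1.03 and the convertase Pcsk5 by 0.68, and Pcsk7 and Pcsk2 gave -0.28 and -0.22. Of 13 regulators of Bdnf transcription, Mef2c was higher (0.33) and 3 were lower, with the CREB coactivator Crtc2 at -0.41 and Carf at -0.15. Of 14 activity-regulated genes 0 were higher and 4 lower, with Egr1 at -0.26 and Junb at -0.23. Of 7 genes of the GDNF family, the co-receptors Gfra1 (1.25) and Gfra2 (1.02) were higher.

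Against the inputs 112 of the 133 genes passed in the D1 line (84.2%, 67 higher) and 113 in the D2 line (85%, 63 higher), close to the background above. Among the largest falls in the D1 and D2 lines were those of the transcription factor Klf4 (log2 -3.17 and -2.96), the myelin protein Mag, a ligand of the p75 complex (-2.80 and -3.21), the phospholipase Plcg2 (-2.51 and -2.20), the adaptor Gab1 (-2.34 and -2.15) and the repressor Rest (-2.15 and -1.73). Rises of similar size in both lines were found for Vgf, a target of Bdnf signalling (1.44 and 1.51), Map2k1, the kinase MEK1 (1.46 and 1.47), Islr2 (1.17 and 1.23), the convertase Pcsk2 (1.01 and 1.25), Camk4 (0.89 and 1.18) and Sorcs3 (0.92 and 0.91). Gfra2 was higher in the D1 line (0.63) and lower in the D2 line (-0.51). No gene of these lists passed an adjusted p of 0.05 in any stress contrast by edgeR. In Sirt1-KO against Con IPs 3 of 132 passed (2.27%, against 1.66% of all genes), Pcsk5 (log2 0.82, adjusted p = 0.0480) and Lingo1 (0.51, adjusted p = 0.0386) higher and Slitrk6 (-1.50, adjusted p = 0.0094, all by edgeR) lower.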

How the data were processed

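The deposited files were 2 tables of raw counts per gene symbol, made by the authors from poly-A RNA of RiboTag IPs and inputs. Per the labels, cutadapt, FastQC, STAR, HTSeq, DESeq2 and HOMER were used with build mm10; versions and the strand setting of the counting are not given in the sources used here. Each table has 5 entries naming no gene, which were left out; reads on no feature came to 10.4 to 17.6% in IPs and 23.4 to 27.2% in inputs. The counts of 2 columns that match no sample description were not used. In 76 pairs of replicates none was a duplicate. Precision is limited by counting error at 21591075 to 31009626 counts an IP and by the number of pools; per the study's methods the defeated mice came from more than 1 batch of defeat, but which library belongs to which batch is not given in the sources used here, so batch was not a term of any fit and p-values measure the spread between these libraries.

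Counts were fitted with edgeR 4.0.16 (limma 3.58.1, R 4.3.3): filterByExpr (minimum count 10, total 15), TMM, a quasi-likelihood fit and a test across all genes, with 1 model for IPs (6 groups), 1 for IPs and inputs, 1 for inputs and 1 for Sirt1-KO against D1 Con. Calls were adjusted p under 0.05, and for stress contrasts unadjusted p under 0.05 with the adjusted value beside it. The SE of an edgeR value is its absolute log2 change divided by the square root of the F statistic of its test. Correlations used log2(CPM + 0.5) and permutation tests, and the receptor ratio permutation tests, in scipy 1.17.1. Replicate numbers were checked for pairing. Since not every pair of same-numbered libraries deviated together (r over 0.1), the fits reported have no block. This criterion cannot show that same-numbered libraries share no batch or pool, and the titles give each input the number of an IP. Scripts were tested on simulated counts in which every gene had the same dispersion (spread beyond counting error). Of 100 genes changed by 1 on the log2 scale, 95% were recovered between D1 and D2 IPs and 93% in the Sirt1-KO design. Of 100 changed by 0.3, 58% and 5% were recovered there. In that case 21% were recovered between D1 IPs and inputs and 24% between the inputs of the 2 lines. Bdnf and Ngfr varied more than other genes of their level, so these shares do not carry over to them. Alternatives were DESeq2 1.42.0, RLE size factors, library totals alone, and other filters and thresholds. Further ones were only the groups compared, the replicate number or the pool of IP and input as a block, and each library left out. Named were the 6 genes, Ntf5, up to 2 genes per direction and pathway list with the largest change among adjusted calls, and the 3 genes most alike over IPs; a few genes that this rule names are not reported here. Likeness is Pearson's r of log2 CPM, with no p. The members and lists were chosen with earlier results of these data known. Coordinates are of GRCm38 (GENCODE vM21); promoter windows are RefSeq's.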

Additional observations from a re-analysis of the deposited data

Results flagged for a closer look

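Single libraries stood far from the rest of their group in 4 of the 42 gene and group combinations of 4 or 5 libraries examined with Dixon's test, of which chance alone would give about 1 in 20. Ngfr was at 21.8 CPM in D2 Sus replicate 1, where the other 4 libraries had 0.729 to 5.96 CPM. Ntrk2 was at 527 CPM in D1 Con replicate 1 and at 598 to 607 CPM in the others, and this is 1 of the 3 libraries whose removal ended the unadjusted call between D1 Sus and D1 Con. Ntrk3 was at 120.06 CPM in D2 Sus replicate 3 against 129.6 to 133 CPM in the others, and its removal ended the unadjusted call between D2 Sus and D2 Con. Ntrk3 was at 142 CPM in Sirt1-KO replicate 5 against 115 to 119 CPM in the others.

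The change from input to IP differed between the D1 and D2 lines for 2 of the 6 genes by the interaction test of edgeR, by 2.93 on the log2 scale for Bdnf and by -0.17 for Ntrk3, where 25.5% of all genes differed.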

How the results depend on the processing

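Without TMM, with library totals alone, Ntrk3 turned to -0.017 between D1 IPs and inputs, and 1 rather than 2 of the 36 stress tests passed; with an adjusted p required, 0 passed. Under library totals alone the share of calls higher fell from 47.9% to 34.3% (IP against input, D1 line), 45.8% to 37.1% (D2 line) and 53.7% to 31.4% (difference between lines), the median of all genes in the D2 line going from -0.08 to -0.21. The same scaling moved the share higher from 37.2% to 18.9% for Sirt1-KO, from 55.2% to 68.0% for D1 against D2 Con IPs, from 56.4% to 88.3% for D2 Sus against Con and from 59.4% to 5.80% for input Sus against Con. With a fold over 1.5 required, 2 rather than 4 genes passed between D1 and D2 IPs and 5 rather than 11 tests between IPs and inputs. For Sirt1-KO, 0 genes became 2 by DESeq2 (Ntrk2, adjusted p = 0.0177; Sort1, 0.0293) and 3 with the replicate number as a block (Bdnf too, log2 1.56), where 741 and 1618 of 13626 genes passed. Deviations of same-numbered libraries went together at r over 0.1 in 1 of 3 pairs of Sirt1-KO and Con, 7 of 18 of IP and input and 32 of 66 of IPs of different groups (median r 0.098), against 46 of 260 for IPs of unlike number (median -0.029), so the criterion of every pair was not met. With the replicate block 5 genes passed between D1 and D2 IPs (Ntrk2 as well) and 3 stress tests. Ntrk2 and Sort1 then also passed for the difference between lines in the change from input to IP. With same-numbered IP and input taken as 1 pool and blocked, all 12 IP against input values kept direction and side of the threshold. Over all libraries left out in turn, counts were 3 to 5 between D1 and D2 IPs, 1 to 3 for stress, 0 to 1 for stress by class (1 without D1 Con replicate 1, D2 Con replicate 1 or 3, D2 Res replicate 5 or D2 Sus replicate 5), 11 to 11 between IPs and inputs, 0 to 1 in the inputs (Ngfr without D2 Res input replicate 3 or D2 Sus input replicate 3) and 0 to 1 for Sirt1-KO, and the log2 ratio of Ntrk2 to Ntrk3 differed by 0.223 to 0.276 (0.20 in Con mice). Of the other values for the 6 genes, 779 kept direction and side of the threshold, 14 gained and 4 lost a call. Depth limits Ntf3 in every library and Bdnf and Ngfr where they have few counts.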
